A study of Homo sapiens with 4 samples.

Results

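The endoplasmic reticulum (ER) folds secreted and membrane proteins and disposes of those that fail to fold. The 40 genes described here, of 22852 gene symbols in the tables, encode that machinery. They were taken by name from a list of ER chaperones, disulfide enzymes, stress sensors and degradation factors, a list chosen with earlier results of these data known. A chaperone arm holds 20 of them, a degradation arm 14, the stress sensor group 4 and the protein translocon 2. The cells were PC-3M-luc, a human line derived from metastatic prostate cancer and marked with luciferase, and their RNA was sequenced at passages 17 to 20. LSD1 RNAi cells (2 libraries) were transfected with RNAi against LSD1, and control RNAi cells (2 libraries) with a control RNAi, and both were harvested after 72 h. All 4 libraries come from 1 line, and the comparison is of transfected cells with transfected cells. It addresses which transcripts differ between LSD1 RNAi and control RNAi. Other effects of the RNAi cannot be told apart here from the lowering of LSD1. The labels call the libraries biological replicates without naming separate cultures, so the p-values measure only the spread between these libraries, which may be technical.

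KDM1A, which encodes the histone demethylase LSD1, had 17.8 and 18.1 CPM (the read count scaled to library size) in LSD1 RNAi libraries, against 234.9 and 237.9 CPM in control RNAi libraries, or 7.59% of control. Counts assigned to genes ranged from 12041283 to 12832064 per library. Carcinoma epithelial markers were present in every library, with a summed level of 1068 and 1114 CPM over 6 genes in LSD1 RNAi libraries and 999.6 and 1015 CPM in control RNAi libraries. Of the 6, 3 were higher in LSD1 RNAi libraries and 0 lower, where 18.2% of all genes were higher. These were KRT8 (1.39-fold), EPCAM (1.42-fold) and CDH1 (2.42-fold). The 5 luminal prostate markers, which this androgen-independent line is known to lack, had at most 7 counts in any library, as had the 4 erythroid and plasma markers. Leukocyte markers summed to 47.5 and 49.9 CPM in LSD1 RNAi libraries against 91.2 and 88.9 CPM in control RNAi libraries, most of it from CD68 (44.7 and 46.7 CPM in LSD1 RNAi against 86.6 and 86.0 CPM in control RNAi libraries), with 3 of 7 at 0 in every library. LYZ, at most 1.39 CPM, went the other way. Fibroblast and endothelial markers summed to 112.8 and 110.7 CPM in LSD1 RNAi libraries against 70.2 and 81.9 CPM in control RNAi libraries, with 1 of 7 at 0. KDR carried most of that difference (57.9 and 52.3 CPM in LSD1 RNAi against 20.4 and 28.5 CPM in control RNAi libraries), while PECAM1 was lower (log2 fold change -0.74). The part of any of these marker lists in the results below was not tested. In bulk libraries fewer cells of a type and less RNA per cell cannot be told apart.

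In the ER lumen the Hsp70 chaperone BiP, encoded by HSPA5, and its cofactors bind unfolded chains, the lectins calnexin and calreticulin hold glycoproteins, and protein disulfide isomerases form and shuffle disulfide bonds. Glycoproteins that stay unfolded are trimmed by EDEM mannosidases, recognised by the lectins OS9 and ERLEC1, passed through a membrane complex built on SEL1L and the ubiquitin ligase SYVN1, and pulled into the cytosol by VCP and UFD1 for the proteasome. Unfolded protein is sensed by ATF6, by IRE1 (encoded by ERN1) and by PERK (encoded by EIF2AK3). The first 2 act through transcription factors, the cleaved ATF6 and the spliced XBP1, that raise many of these genes from short promoter elements. These elements are shown first, because the values of the members are given below by whether the window holds one.

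Promoter windows of 300 bases, from 250 before to 50 after each annotated start, were available from RefSeq (GRCh38.p14) for 36 of the 40 genes. The ER stress response element (ERSE), searched on both strands as CCAAT and CCACG with 9 bases of any kind between them, was found in 8 of these 36 genes (22.2%), against 25 of 27305 genes (0.0916%) over all promoters. The elements searched here and below were picked because they are known to act on many of these genes. Their shares therefore describe the list and were not tested as an enrichment. The matches below are printed in the direction of the motif with 10 flanking bases on each side. Capitals mark the CCAAT and CCACG blocks.

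HSPA5 (chr9:125241391-125241409, minus strand): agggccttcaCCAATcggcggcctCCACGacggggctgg
HSP90B1 (chr12:103930321-103930339, minus strand): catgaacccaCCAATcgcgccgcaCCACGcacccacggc
CALR (chr19:12938384-12938402, minus strand): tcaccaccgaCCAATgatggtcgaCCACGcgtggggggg
CANX (chr5:179698778-179698796, plus strand): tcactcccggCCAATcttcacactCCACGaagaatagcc
PDIA6 (chr2:10812853-10812871, minus strand): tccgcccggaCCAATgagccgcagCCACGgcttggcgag
CRELD2 (chr22:49918554-49918572, minus strand): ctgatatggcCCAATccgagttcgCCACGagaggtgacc
XBP1 (chr22:28800603-28800621, minus strand): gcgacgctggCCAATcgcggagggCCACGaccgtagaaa

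HSP90B1 held another match farther upstream, and ERO1B also held 1. The related element ERSE-II, searched on both strands as ATTGG and CCACG with 1 base of any kind between them, was found in 3 of the 36 members (8.33%) against 19 of 27305 genes (0.0696%). It is shown with its blocks in capitals for the 3 genes.

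HERPUD1 (chr16:56932025-56932035, plus strand): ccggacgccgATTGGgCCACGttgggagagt
SDF2L1 (chr22:21642114-21642124, minus strand): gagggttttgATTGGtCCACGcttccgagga
HYOU1 (chr11:119057274-119057284, plus strand): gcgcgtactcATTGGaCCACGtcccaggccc

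HYOU1 carried a further ERSE-II, which overlaps a match to the unfolded protein response element (UPRE), searched on both strands as TGACGTGG. That element was also found in DNAJC10 and VCP, and in 0.927% of genes over all promoters. All of the matches lay in members of the chaperone arm except those of XBP1, HERPUD1 and VCP. None of the 5 genes for degradation lectins and mannosidases held any of the 3 elements in its window.

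**Figure D1:**
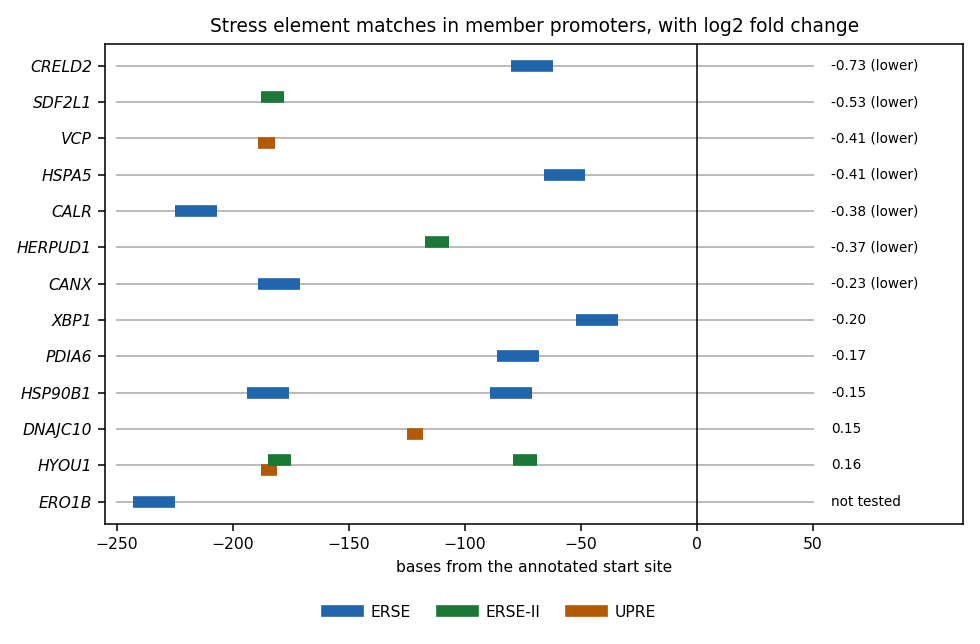
Positions of ERSE, ERSE-II and UPRE matches in the promoter windows of 13 members, in bases from the annotated start site (vertical line), ordered by log2 fold change of LSD1 RNAi over control RNAi, which is printed at the right with the call. For CANX, which has several annotated starts, the position is from the start farthest from the match. Of the 10 tested genes drawn with ERSE or ERSE-II, 6 were lower and 0 higher in LSD1 RNAi libraries, where 17.9% of all genes were lower and 18.2% higher. The counts were 3 lower and 1 higher without control RNAi replicate 1.

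Of the 40 members, 38 passed the filter on low counts, and of these 5 were higher and 15 lower in LSD1 RNAi cells at an adjusted p under 0.05 (edgeR quasi-likelihood test). Over all 13252 genes tested, 18.2% were higher and 17.9% were lower. The arms had medians of opposite sign. In the chaperone arm 9 of 19 tested genes were lower and 0 higher, with a median log2 fold change of -0.17. In the degradation arm 4 of 13 were higher and 4 lower, with a median of 0.16, and all 4 that were higher were lectins or mannosidases that act on the glycoproteins to be degraded. The median over all genes tested was 0.00. With the replicate number as a block, 5 members were higher and 15 lower, where 19.9% of all genes were called in each direction. Knockdown values lay below both controls in 11 of 19 chaperone arm genes and 4 of 13 degradation arm genes, against 33.5% of all genes. They lay above both controls in 2 of 19 and 7 of 13, against 33.7% of all genes. The arms were not tested against each other, since the genes of an arm are not replicates. Control RNAi replicate 1 stood above replicate 2 in 19 of 19 chaperone arm genes, with a median log2 difference of 0.18, against 6534 of 13252 over all genes. That difference between 2 control libraries is as large as the chaperone arm's median change. In the degradation arm, control RNAi replicate 1 was the higher in 10 of 13 genes, with a median log2 difference of 0.14. That is close to the degradation arm's median change of 0.16. LSD1 RNAi replicate 1 stood above replicate 2 in 13 of 19 chaperone arm genes and 10 of 13 degradation arm genes. Over all genes this was 6695 of 13252. The median log2 difference between LSD1 RNAi replicates was 0.06 in each arm.

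**Figure D2:**
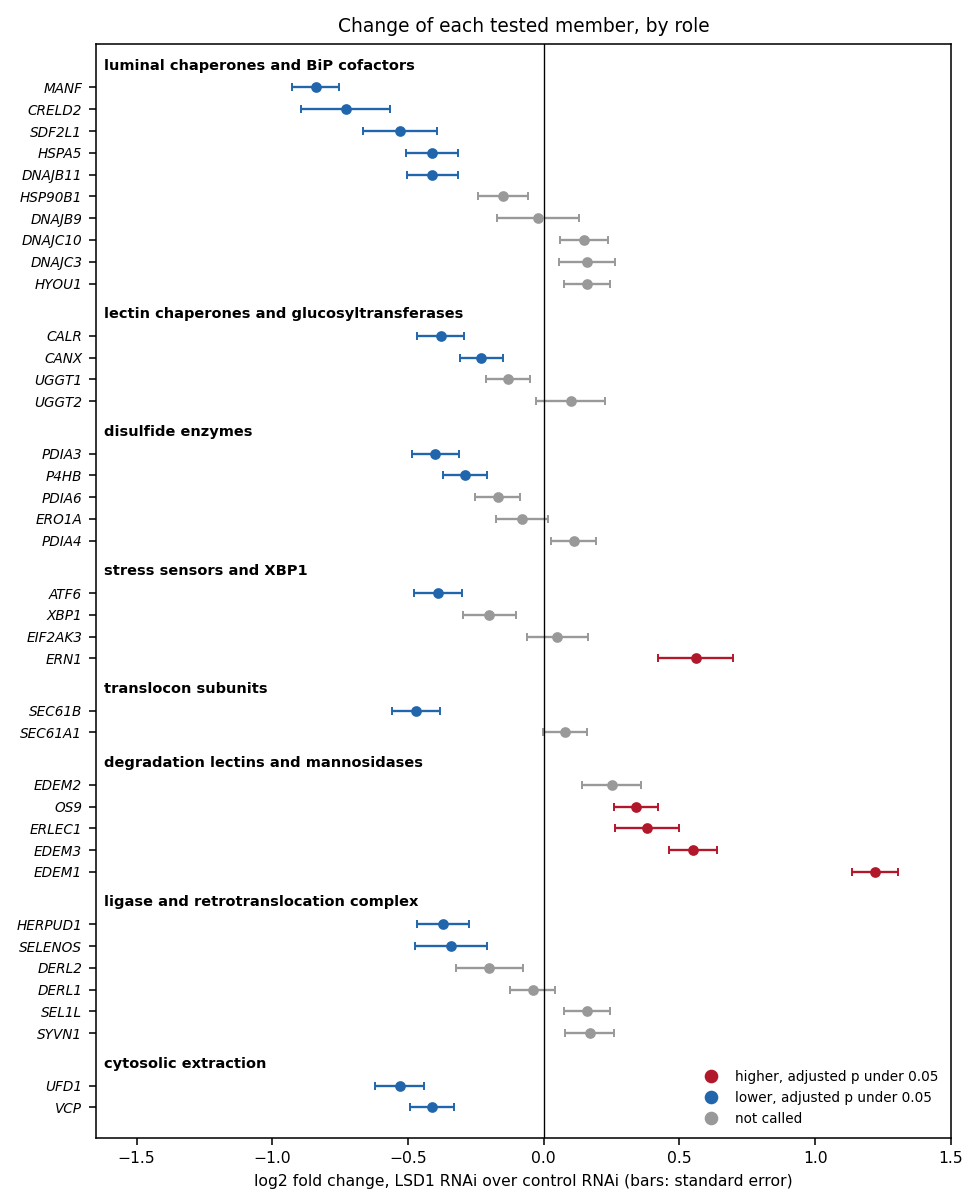
Log2 fold change of LSD1 RNAi over control RNAi (horizontal axis, bars show the standard error) for the 38 tested members, grouped by role, with genes called higher, called lower and not called in separate colours. The degradation lectins and mannosidases lie between 0.25 and 1.22, whereas the luminal chaperones and cofactors lie between -0.84 and 0.16.

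Among the 10 luminal chaperones and cofactors of BiP, 5 fell and 0 rose, with a median log2 fold change of -0.28, where 17.9% of all genes fell and 18.2% rose. Without control RNAi replicate 1 the group had 3 genes lower (MANF, CRELD2 and SDF2L1) and 1 higher (HYOU1), with a median of -0.09. MANF, a small secreted ER protein that binds BiP, fell the most. It had 66.4 and 67.2 CPM in LSD1 RNAi libraries, against 124.5 and 114.3 CPM in control RNAi libraries. The groups lie far apart, and the fall was 1.79-fold (log2 fold change -0.84, standard error 0.0866, edgeR adjusted p = 3.3e-09). CRELD2, an ER protein induced by stress, had 7.20 and 9.11 CPM in LSD1 RNAi libraries and 15.4 and 11.7 CPM in control RNAi libraries. It fell 1.66-fold (log2 fold change -0.73, standard error 0.165, edgeR adjusted p = 0.000693), and its groups do not overlap, although the control libraries differ. Its exons overlap those of ALG12 on the opposite strand over 168 nucleotides, and ALG12 had a mean count of 287.5 against 135.0 for CRELD2.

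HSPA5 had 757.7 and 729.3 CPM in LSD1 RNAi libraries, against 1127 and 854.2 CPM in control RNAi libraries. Both knockdown values are below both control values, but the control libraries differ from each other more than the knockdown libraries do. The fall was 1.33-fold (log2 fold change -0.41, standard error 0.0961, edgeR adjusted p = 0.000911). Without control RNAi replicate 1 it was -0.20 on the log2 scale, with an edgeR adjusted p of 0.122, while DESeq2 over all libraries gave a like fold change (-0.42 on the log2 scale) with an adjusted p of 0.118. DNAJB11, a J-domain cofactor that delivers clients to BiP, averaged 68.95 ± 5.22 CPM in LSD1 RNAi and 91.5 ± 11.5 CPM in control RNAi libraries (SD, n = 2 each), a fall of 0.41 on the log2 scale (edgeR adjusted p = 0.000819). Its call was also lost without control RNAi replicate 1, at a log2 fold change of -0.28 and an edgeR adjusted p of 0.0581. SDF2L1, which acts with DNAJB11 to keep clients soluble, had 15.8 and 12.05 CPM in LSD1 RNAi libraries and 21.3 and 18.75 CPM in control RNAi libraries. The groups do not overlap, and the fall was 1.44-fold (log2 fold change -0.53, edgeR adjusted p = 0.0027). It was lost without LSD1 RNAi replicate 2, where the log2 fold change was -0.34 (edgeR adjusted p = 0.104).

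The other 5 luminal genes did not pass the test. HSP90B1, the ER member of the Hsp90 family, had 988.4 and 920.0 CPM in LSD1 RNAi libraries and 1182 and 942.5 CPM in control RNAi libraries, so its groups overlap (log2 fold change -0.15, edgeR adjusted p = 0.198). Without control RNAi replicate 2 it was called lower, at a log2 fold change of -0.31. HYOU1, a nucleotide exchange factor of BiP, had a log2 fold change of 0.16 and was called higher, at 0.29, without control RNAi replicate 1. DNAJC10, a J-domain reductase that also serves degradation, had 0.15 and was called higher, at 0.25, without LSD1 RNAi replicate 2. DNAJC3, another J-domain cofactor, had 0.16, and DNAJB9, a J-domain protein that also restrains IRE1, had -0.02 with overlapping groups. DNAJB9 shares 183 exonic nucleotides with THAP5 and 99 with PNPLA8, both on the opposite strand. Their mean counts were 238.2 and 215.5, against 165.5 for DNAJB9.

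The lectin chaperones both fell, where 17.9% of all genes fell. CALR, which encodes the soluble lectin calreticulin, had 1402 and 1454 CPM in LSD1 RNAi libraries, against 1996 and 1725 CPM in control RNAi libraries. Knockdown values sit below both controls, and the fall was 1.30-fold (log2 fold change -0.38, standard error 0.0882, edgeR adjusted p = 0.000866). CANX, which encodes its membrane-bound relative calnexin, had 334.6 and 331.0 CPM in LSD1 RNAi libraries and 392.7 and 386.0 CPM in control RNAi libraries. Replicates of CANX lie close together and the groups are apart, yet the change was small (log2 fold change -0.23, edgeR adjusted p = 0.0249). Its call was lost without any single library, where the log2 fold change was -0.24 to -0.22 with an edgeR adjusted p of 0.0625 to 0.107, and without normalization factors. UGGT1 and UGGT2, the glucosyltransferases that return unfolded glycoproteins to these lectins, had log2 fold changes of -0.13 and 0.10 and did not pass the test.

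Of the 6 disulfide enzymes 2 fell, 3 did not pass and 1, ERO1B, was too low to test. Over all genes tested 17.9% fell. P4HB, which encodes protein disulfide isomerase, had 650.2 and 655.6 CPM in LSD1 RNAi libraries, against 816.5 and 779.9 CPM in control RNAi libraries. Its groups are well separated, and the fall was 1.22-fold (log2 fold change -0.29, standard error 0.0817, edgeR adjusted p = 0.00543). PDIA3, the isomerase that works with the lectin chaperones, had 147.6 and 128.6 CPM in LSD1 RNAi libraries and 192.5 and 172.3 CPM in control RNAi libraries, a 1.32-fold fall (log2 fold change -0.40, edgeR adjusted p = 0.000402). The isomerase genes PDIA6 and PDIA4 had log2 fold changes of -0.17 and 0.11, and ERO1A, the oxidase that recharges the isomerases, had -0.08. PDIA6 shares 1033 of its 4101 exonic nucleotides with ATP6V1C2 on the opposite strand, which had a mean count of 840.8 against 2823.2 for PDIA6. PDIA6 was called lower without control RNAi replicate 2, at -0.27, and ERO1A without LSD1 RNAi replicate 1, at -0.26. ERO1B, its relative, had 1 and 2 counts in LSD1 RNAi libraries and 4 and 2 counts in control RNAi libraries.

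**Figure D3:**
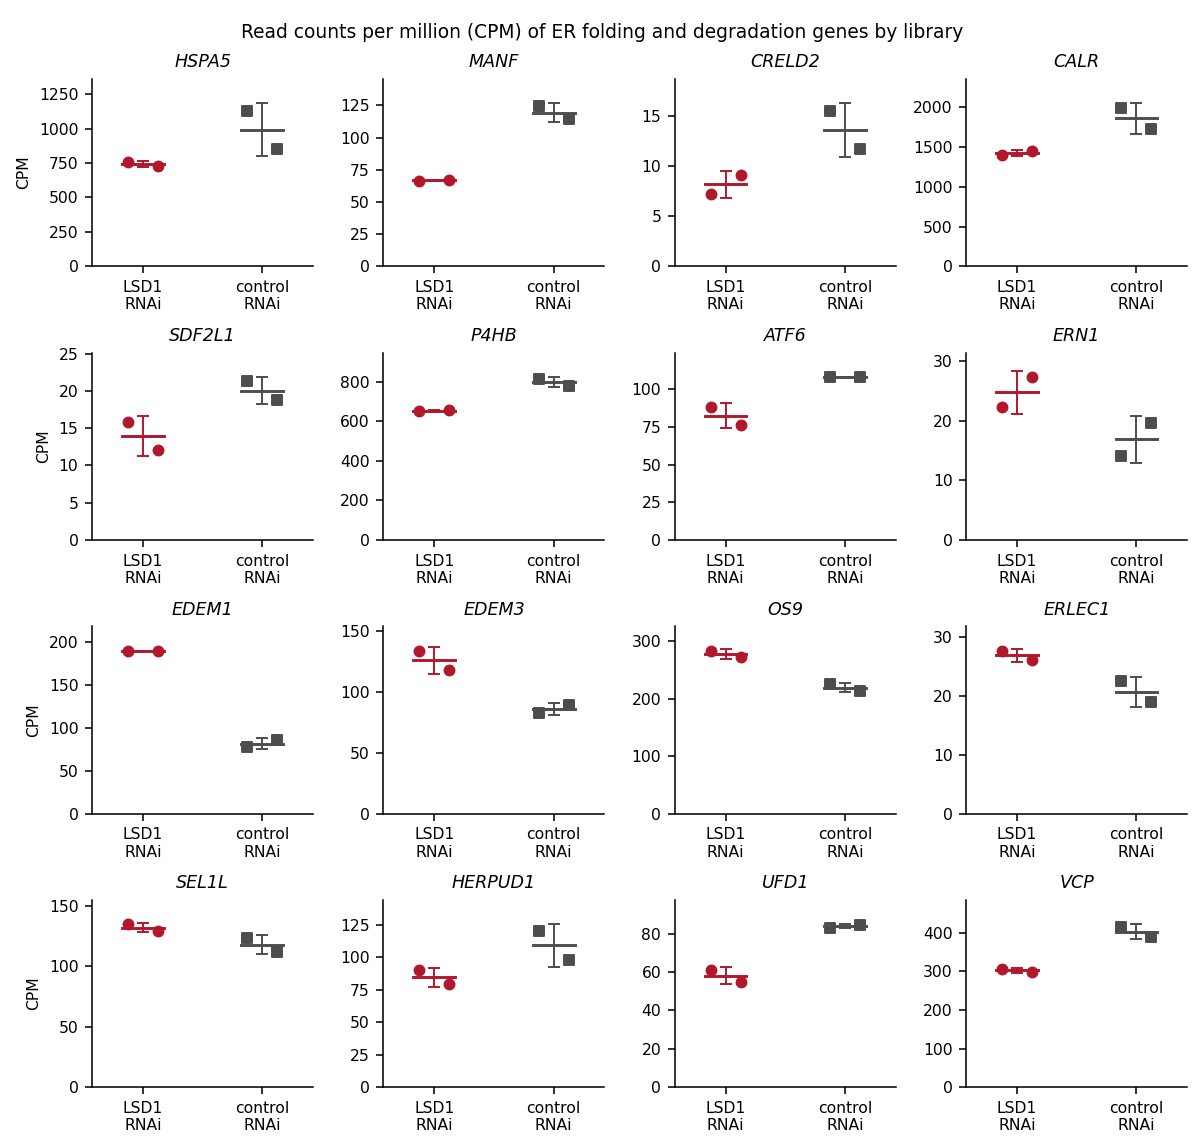
Normalised read counts (CPM, vertical axes start at 0) of 16 members in each library, with LSD1 RNAi as circles at the left and control RNAi as squares at the right of each panel. Lines are means and bars the SD of 2 libraries. EDEM1 stands at 189.5 CPM in both LSD1 RNAi libraries, above 77.0 and 86.1 CPM in the control RNAi libraries.

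The stress sensors went different ways. ERN1, the kinase and endoribonuclease IRE1 that splices the XBP1 message, had 22.2 and 27.3 CPM in LSD1 RNAi libraries and 14.1 and 19.7 CPM in control RNAi libraries. The groups do not overlap but lie near each other, and the rise was 1.47-fold (log2 fold change 0.56, standard error 0.137, edgeR adjusted p = 0.00158). It was lost without control RNAi replicate 1, at a log2 fold change of 0.33 and an edgeR adjusted p of 0.0793. ATF6, the membrane-bound transcription factor, had 88.4 and 76.5 CPM in LSD1 RNAi libraries, against 108.0 and 108.0 CPM in control RNAi libraries. Control values of ATF6 were nearly equal and above both knockdown values, and the fall was 1.31-fold (log2 fold change -0.39, edgeR adjusted p = 0.000693).

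EIF2AK3, the kinase PERK that slows translation, had 26.4 and 24.6 CPM in LSD1 RNAi libraries and 24.9 and 24.5 CPM in control RNAi libraries, which overlap (log2 fold change 0.05, edgeR adjusted p = 0.786). XBP1 had 37.6 and 35.1 CPM in LSD1 RNAi libraries and 42.1 and 41.2 CPM in control RNAi libraries. Its knockdown values were the lower ones, but the difference did not pass the test (log2 fold change -0.20, edgeR adjusted p = 0.12). Counts per transcript do not separate the spliced from the unspliced XBP1 message. In the translocon, the channel through which new chains enter the ER, SEC61B fell 1.38-fold (62.1 ± 2.58 CPM in LSD1 RNAi and 86.02 ± 4.52 CPM in control RNAi libraries, SD, n = 2 each, edgeR adjusted p = 8.49e-05). SEC61A1, its pore subunit, had a log2 fold change of 0.08.

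Of the 5 degradation lectins and mannosidases 4 rose, where 18.2% of all genes rose. The groups did not overlap for any of the 5, and 33.7% of all genes had knockdown values above both controls. EDEM1, which trims mannose from misfolded glycoproteins, had 189.5 and 189.5 CPM in LSD1 RNAi libraries, against 77.0 and 86.1 CPM in control RNAi libraries. No other member changed as much, and the rise was 2.32-fold (log2 fold change 1.22, standard error 0.0852, edgeR adjusted p = 6.43e-13). GENCODE places an antisense gene across 653 of its 6758 exonic nucleotides, and whether reads were counted by strand is not known here. EDEM3, a related mannosidase, had 133.9 and 118.1 CPM in LSD1 RNAi libraries and 82.6 and 89.2 CPM in control RNAi libraries. It rose 1.47-fold (log2 fold change 0.55, standard error 0.0876, edgeR adjusted p = 7.2e-06), with a clear gap between the groups. EDEM2, the mannosidase that acts first, averaged 30.2 ± 0.891 CPM in LSD1 RNAi and 25.3 ± 2.08 CPM in control RNAi libraries (SD, n = 2 each). It did not pass the test (log2 fold change 0.25, edgeR adjusted p = 0.0692), and was called higher only without normalization factors.

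OS9, a lectin that reads the trimmed mannose signal, had 283.3 and 271.8 CPM in LSD1 RNAi libraries, against 224.6 and 213.9 CPM in control RNAi libraries. The difference between groups exceeded that within them, a 1.27-fold rise (log2 fold change 0.34, standard error 0.0803, edgeR adjusted p = 0.0011). ERLEC1, the other lectin of this step, had 27.7 and 26.1 CPM in LSD1 RNAi libraries and 22.5 and 18.9 CPM in control RNAi libraries, a 1.30-fold rise (log2 fold change 0.38, edgeR adjusted p = 0.0121). The ERLEC1 call was lost without LSD1 RNAi replicate 1, without control RNAi replicate 2 and with DESeq2 (DESeq2 adjusted p = 0.0868), at log2 fold changes of 0.33, 0.26 and 0.37 in that order.

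In the ligase and retrotranslocation complex 2 of 6 tested genes fell and 0 rose, where 17.9% of all genes fell. Neither was called without control RNAi replicate 1, so that 0 of 6 fell. SEL1L, the scaffold of the complex, had 134.6 and 129.4 CPM in LSD1 RNAi libraries and 123.2 and 112.2 CPM in control RNAi libraries. SYVN1, the ubiquitin ligase, had 68.5 and 75.8 CPM in LSD1 RNAi libraries and 65.1 and 62.8 CPM in control RNAi libraries. Both had knockdown values above the controls, but neither difference passed the test, with log2 fold changes of 0.16 (edgeR adjusted p = 0.124) for SEL1L and 0.17 (edgeR adjusted p = 0.131) for SYVN1. SYVN1 shares 398 exonic nucleotides with FAU on the same strand and 356 with MRPL49 on the opposite one, and both are more abundant.

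HERPUD1, which gathers the complex around its clients, had 90.0 and 79.3 CPM in LSD1 RNAi libraries, against 120.6 and 97.7 CPM in control RNAi libraries. It fell 1.29-fold (log2 fold change -0.37, edgeR adjusted p = 0.00258), with a control spread wider than the gap between the groups. The call was lost without control RNAi replicate 1, at -0.21 (edgeR adjusted p = 0.161). SELENOS, a selenoprotein that recruits VCP, fell 1.26-fold at an edgeR adjusted p of 0.0458 and lost the call in 6 of 13 other settings. Its log2 fold change was -0.34 with all libraries, -0.12 without control RNAi replicate 1 and -0.25 without LSD1 RNAi replicate 2, whereas it was -0.34 with DESeq2 and -0.33 with limma-voom, which did not call it. The Derlin genes DERL1 and DERL2, membrane proteins of the exit channel, had log2 fold changes of -0.04 and -0.20 with overlapping groups, and DERL3 had 3 and 0 counts in LSD1 RNAi and 4 and 0 counts in control RNAi libraries.

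Both genes of cytosolic extraction fell, where 17.9% of all genes fell. VCP, the ATPase that pulls chains out of the membrane, had 306.7 and 298.3 CPM in LSD1 RNAi libraries, against 415.8 and 388.6 CPM in control RNAi libraries, a 1.33-fold fall (log2 fold change -0.41, standard error 0.0808, edgeR adjusted p = 0.00014). UFD1, its ubiquitin-binding cofactor, had 61.3 and 54.9 CPM in LSD1 RNAi libraries and 83.1 and 84.5 CPM in control RNAi libraries. The fall of UFD1 was 1.44-fold (log2 fold change -0.53, standard error 0.0898, edgeR adjusted p = 1.96e-05). In both genes the groups are separated by more than the spread of either. The 4 rises of the degradation arm were thus in the mannosidase genes EDEM1 and EDEM3 and the lectin genes OS9 and ERLEC1, and its 4 falls in HERPUD1, SELENOS, VCP and UFD1.

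**Figure D4:**
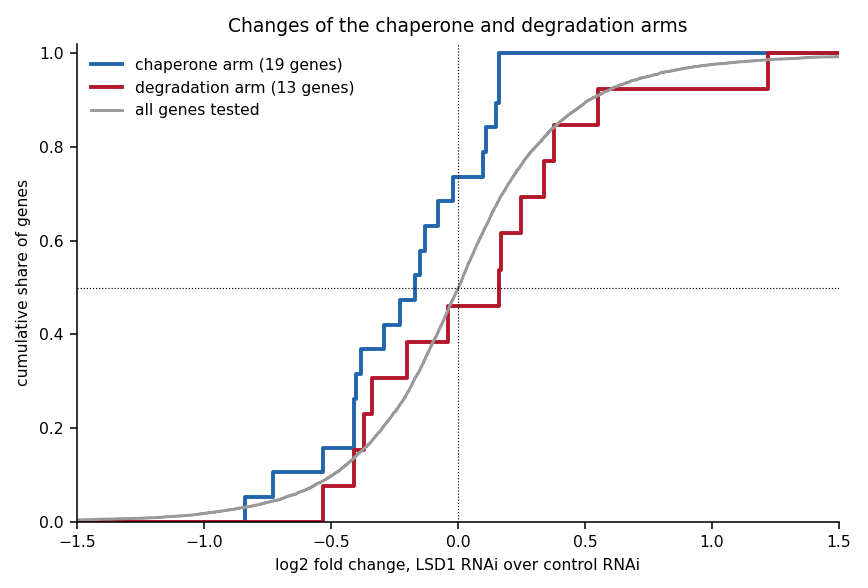
Cumulative share of genes (vertical axis) by log2 fold change of LSD1 RNAi over control RNAi (horizontal axis) for the 19 tested chaperone arm genes, the 13 tested degradation arm genes and all 13252 genes tested. The chaperone curve crosses the middle at -0.17 and ends at 0.16, whereas the degradation curve crosses at 0.16 and reaches 1.22.

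By library, the median chaperone arm gene stood at -0.13 and -0.23 in LSD1 RNAi replicates 1 and 2, and at 0.09 and -0.09 in control RNAi replicates 1 and 2, on a log2 scale with the control mean at 0. Both knockdown medians are below both control medians, but the gap between LSD1 RNAi replicate 1 and control RNAi replicate 2 is small. The degradation arm medians were 0.10 and 0.14 in LSD1 RNAi replicates 1 and 2, and 0.07 and -0.07 in control RNAi replicates 1 and 2. Here the gap between LSD1 RNAi replicate 1 and control RNAi replicate 1 is small as well. Without control RNAi replicate 1 the chaperone arm had 6 genes lower and 1 higher, with a median log2 fold change of -0.10. Without control RNAi replicate 2 it had 10 lower and 0 higher, with a median of -0.27. The degradation arm then had 4 higher and 2 lower without control RNAi replicate 1, and 3 higher and 4 lower without control RNAi replicate 2. The calls of MANF, CRELD2, CALR, P4HB, PDIA3, ATF6, SEC61B, EDEM1, EDEM3, OS9, UFD1 and VCP, 12 of the 20, held in each of the 13 other settings.

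**Figure D5:**
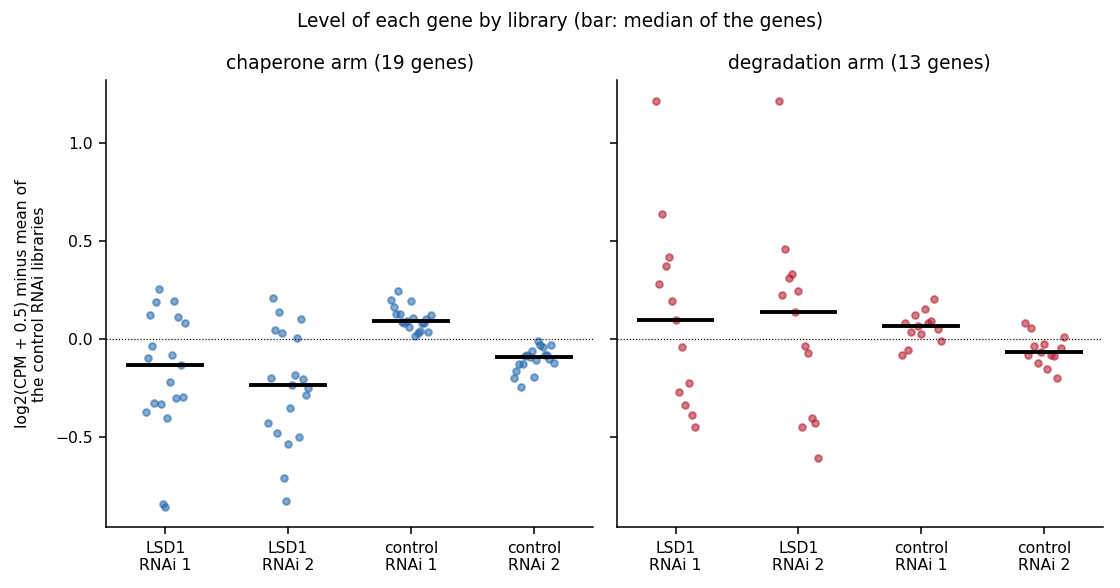
Level of each tested gene of the chaperone arm (left) and degradation arm (right) in the 4 libraries, as log2(CPM + 0.5) minus the mean of the control RNAi libraries, with the median of the genes as a bar. Chaperone arm medians are -0.13 and -0.23 in LSD1 RNAi libraries and 0.09 and -0.09 in control RNAi libraries.

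Of the 10 tested genes with ERSE or ERSE-II, 6 fell and 0 rose, with a median log2 fold change of -0.30 and a range of -0.73 to 0.16, where 17.9% of all genes fell. Of the 10, 3 were lower without control RNAi replicate 1 and 1 higher, with a median of -0.21, as HSPA5, CANX and HERPUD1 lost the call and HYOU1 gained one. The motifs were chosen with these fold changes known. Of the 25 tested genes whose window held neither, 7 fell and 5 rose, with a median of 0.08 and a range of -0.84 to 1.22, and without control RNAi replicate 1 these were 5 and 4, with a median of 0.14. MANF, the largest fall among members, was among the 25, as was EDEM1, the largest rise. Outside the members, 8 tested genes held ERSE, of which 1 fell and 1 rose, with a median of 0.00. Of 13 others with ERSE-II, 5 fell and 1 rose, with a median of -0.16. A match is a description of the sequence, and binding was not measured here.

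Scaled by the length of the matched GENCODE transcript, the members spanned a wide range of levels. CALR was highest, at 750.4 CPM per kilobase in LSD1 RNAi and 977.9 in control RNAi libraries, followed by HSP90B1, P4HB and HSPA5 in both groups. Among degradation genes OS9 led, at 103.1 CPM per kilobase in LSD1 RNAi and 81.5 in control RNAi libraries. EDEM1 stood at 30.8 against 13.3 CPM per kilobase, and EDEM3 at 18.3 against 12.5. ERN1 was the lowest tested member, at 3.15 CPM per kilobase in LSD1 RNAi and 2.14 in control RNAi libraries. The lengths are those of a newer annotation than the counts, so small differences in level between genes carry no weight. For 12 of the 14 tested members with several transcript rows, the rows gave log2 ratios within 0.03 of each other. The exceptions were SEL1L, at 0.04 to 0.17, and SELENOS, at -0.43 to -0.33. Rows of the same gene can count the same reads, so agreement between them was largely fixed in advance.

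Other genes of the same pathways went either way, and over all genes tested 18.2% rose and 17.9% fell. Of 41 tested genes in a list of further ER-associated degradation genes, 13 rose and 4 fell, with a median log2 fold change of 0.11. HERPUD2, a relative of HERPUD1, averaged 18.5 ± 0.204 CPM in LSD1 RNAi and 9.28 ± 0.260 CPM in control RNAi libraries (SD, n = 2 each), a 1.99-fold rise (edgeR adjusted p = 1.03e-06), and the ligase genes TMEM129 and RNF139 rose 1.54-fold and 1.43-fold. Of 31 tested genes in a list of other folding enzymes and related proteins, 4 rose and 7 fell, with a median of -0.11. TMX1, a membrane thioredoxin, fell 2.12-fold and FKBP2, a prolyl isomerase, 1.53-fold, whereas the disulfide isomerase gene TXNDC5 rose 1.70-fold and the prolyl isomerase gene FKBP14 1.93-fold.

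Of 24 genes for translocation and N-glycan entry, 2 rose and 6 fell, with a median of -0.06, where 17.9% of all genes fell. The signal peptidase genes SPCS3 and SPCS2 fell 1.42-fold and 1.55-fold, OSTC, of the oligosaccharyltransferase, 1.44-fold, and SEC61G, the third translocon subunit, fell by 0.85 on the log2 scale. Among 20 other genes of unfolded protein response signalling 4 rose and 2 fell, with a median of -0.03, where 18.2% of all genes rose. CREB3L1, a membrane-bound transcription factor related to ATF6, averaged 216.0 ± 3.11 CPM in LSD1 RNAi and 84.9 ± 2.94 CPM in control RNAi libraries (SD, n = 2 each), a 2.54-fold rise (edgeR adjusted p = 5.04e-14). MAP3K5, a kinase downstream of IRE1, rose 1.96-fold, while TRAF2, which links them, fell 1.48-fold and PPP1R15B, a phosphatase subunit that restores translation, 1.34-fold. In the branch below PERK, 5 of 12 genes fell and 0 rose, with a median of -0.16, where 17.9% of all genes fell. ATF4, its transcription factor, fell 1.23-fold, PPP1R15A 1.48-fold, DDIT4 1.39-fold and TRIB3 1.28-fold, while DDIT3, which encodes CHOP, had a log2 fold change of -0.16 and was not called.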

How the data were processed

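Each library has its own table of raw read counts per RefSeq transcript, as deposited with no normalization, judged from the values. The build was hg19 and the tools included DESeq 1.8.3, TopHat2, edgeR and HOMER, per the submitters' processing notes, which were read without their roles. The kit, its strandedness and how reads were counted are not stated in the sources used here. Accessions were paired with symbols through a RefSeq gene table (37205 of 38767 rows) and GENCODE 29 metadata (472 rows). The 1090 unmatched rows, 1.38% to 1.40% of counts, were left out. Isoforms count the same reads again, so the row with the highest mean stood for a symbol. Counts were normalized by TMM, filtered by edgeR's filterByExpr at a minimum count of 10 and total of 15 and tested with the quasi-likelihood test of edgeR 4.0.16 (R 4.3.3). The model held the group alone, and p-values were adjusted by Benjamini-Hochberg over 13252 genes, with a threshold of 0.05. The standard error is the log2 fold change over the root of its F value. CPM values use the TMM library sizes. At these depths 3 counts correspond to 0.234 to 0.249 CPM. The test was checked on counts simulated from its own fitted model, which cannot show whether that model suits these data. Values in every library are given for called members changed at least 1.5-fold and for 13 core genes chosen by name, and also for others for illustration. Of each further list up to 4 called genes with the smallest adjusted p are named. A gene that this rule would name is not reported here. The members, lists and motifs were chosen with earlier results of these data known. Exon overlaps and transcript lengths come from GENCODE 29 (GRCh38), and no coordinates of the hg19 build were used. Overlaps are given for some members only. Others, among them PDIA3, DERL1, DERL2 and DNAJB11, also share exonic bases with genes on the opposite strand. Alternatives were other normalizations, filters, DESeq2 1.42.0, limma-voom 3.58.1, sums over rows, keeping unmatched rows, the replicate number as a block, leaving out each library and moving DNAJC10 and DNAJB9 to the degradation arm.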

Additional observations from a re-analysis of the deposited data

How the results depend on the processing

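DESeq2 called 1564 genes higher and 1618 lower over all genes, against 2413 and 2375 with edgeR, and 4 members higher and 13 lower. The cause was not tested. Leaving out single libraries gave 0 to 1 chaperone arm genes called higher, 6 to 10 called lower, 3 to 4 degradation arm genes called higher and 2 to 4 called lower. The median log2 fold change over those 4 settings was -0.27 to -0.10 for the chaperone arm and 0.10 to 0.20 for the degradation arm. With DNAJC10 and DNAJB9 moved to the degradation arm the medians were -0.23 and 0.15. No called member changed sign in any setting, 8 of 20 lost the call in at least 1, and 6 members not called were called in 1. With the replicate number as a block, 5 members were higher and 15 lower, and over all genes 2632 and 2634. Same-numbered libraries had deviations that correlated at 0.137 over 10952 genes. The labels give no shared day, so whether these libraries share more than a number is not known. At this depth ERO1B and DERL3 could not be tested.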

Other observations

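A further list held 21 genes for cytosolic and mitochondrial chaperones, their cofactors and the transcription factor HSF1, none of them in the ER list. Of these, 1 rose and 8 fell. Their median log2 fold change was -0.10, and over all genes 18.2% were higher and 17.9% lower. In the ER chaperone arm 9 of 19 fell and 0 rose, so falls among chaperone genes were not particular to the ER list. BAG3, a cofactor of cytosolic Hsp70, averaged 81.2 ± 0.294 CPM in LSD1 RNAi and 126.6 ± 1.58 CPM in control RNAi libraries (SD, n = 2 each), a 1.56-fold fall (edgeR adjusted p = 3e-07). CCT4, a subunit of the cytosolic chaperonin, fell 1.51-fold and DNAJA1, a J-domain cofactor, 1.39-fold. The mitochondrial pair went apart, as HSPE1 fell 1.42-fold and HSPD1, chosen after its values were seen, rose 1.25-fold.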
